A study of Mus musculus with 8 samples.

Results

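The bone morphogenetic protein (BMP) genes described here were 10 genes of that pathway, taken by symbol: the ligands *Bmp2*, *Bmp4* and *Bmp7*, the receptors *Bmpr1a*, *Bmpr1b* and *Bmpr2*, the signaling and inhibitory SMADs *Smad9* and *Smad6*, the pseudoreceptor *Bambi* and the target gene *Msx2*. All 10 were among the 28432 genes of the count table, and 9 of them were among the 13891 genes that were abundant enough to test. RNA was measured in mouse retinas at E15.5, with tamoxifen given at E11.5 (a dose of 0.15 to 0.2 mg/g), in 4 *Lhx2* CKO embryos (Lhx2 flox/KO; Hes1CreERT2/+) and 4 control embryos (Lhx2 flox/+; Hes1CreERT2/+). Each sample held both retinas of a single embryo. Both genotypes carried the Cre allele at the *Hes1* locus, so each had CreERT2 in a *Hes1* copy, and recombination was driven in cells that express *Hes1*, which in the retina are the progenitor cells. Controls also carried a floxed *Lhx2* allele and were given tamoxifen, so they can retain a single working copy of *Lhx2*. The comparison asked how BMP gene expression differed after *Lhx2*, a LIM-homeodomain transcription factor gene of retinal progenitors, was inactivated at the onset of neurogenesis.

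BMPs are secreted ligands that bind paired type I and type II serine/threonine kinase receptors. The type II receptor phosphorylates the type I receptor, which phosphorylates SMAD1, SMAD5 and SMAD9, and these enter the nucleus with SMAD4 to change transcription. Several targets feed back: SMAD6 blocks the type I receptor and its SMADs, and BAMBI resembles a type I receptor but lacks the kinase domain. In the developing mouse eye, BMP4 from the dorsal optic cup sets dorsal identity, BMP7 acts in early optic cup and lens development, and BMP signaling also acts in the peripheral retina, where *Msx1* marks the ciliary margin.

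The following quantities are used below. Normalized counts are read counts divided by the size factor of a sample, a log2FC is CKO over control from edgeR's quasi-likelihood test, and the adjusted p is the Benjamini-Hochberg value over all 13891 genes tested, with 0.001 as the cutoff for a differentially expressed gene. The error of a mean is its SD (n = 4 per genotype). Total counts were 13955259 to 19099937 in CKO samples and 13143587 to 15063867 in control samples. CKO replicate 1 and control replicate 3 stood apart on the second principal component (28.5 and -22.5, the other samples between -14.5 and 11.8), and by *Xist* and Y-linked genes CKO replicate 1 and control replicates 1 and 4 were female. *Lhx2* was counted over the whole gene, undeleted exons included, and its count checks neither the deletion nor the labels. The retinal genes *Rax*, *Six3*, *Six6*, *Pax6*, *Atoh7*, *Pou4f2* and *Crx* were present in all 8 samples, with summed levels of 26643.3 to 28071.7 normalized counts in CKO samples and 27350.8 to 29261 in controls. Without *Pax6*, the most abundant, the sums were 15059.6 to 16301.3 in CKO samples and 16477.9 to 18306.1 in controls. *Rax* and *Six6* fell and *Pou4f2* rose (log2FC -0.84, -1.11 and 0.46, edgeR adjusted p = 2.1e-05, 2.4e-06 and 1.1e-04). The sums therefore do not show an equal cell makeup.

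Of the 9 BMP genes tested, *Bmpr1a*, *Smad6* and *Bambi* fell in the CKO, none rose, and 6 did not pass the test. Those 3 of 9 compare with 8.61% of all genes tested that were differentially expressed, 4.97% lower and 3.64% higher in the CKO. The median log2FC of the 9 genes was -0.75 (0.0050 over all genes tested), and 8 of the 9 had a negative log2FC, among them *Bmp7* at -0.0042, whose sign differed between fits. *Bmp2* and *Bmp4* passed the filter on low counts on account of the controls, and without them the median of the other 7 was -0.41. At the looser adjusted p of 0.05, 5 passed, all lower in the CKO. These were the 3 that fell, and *Bmp2* and *Bmp4*, which were tested on account of the controls. Of all genes tested 33.3% passed at 0.05 in either direction, 4619 genes, of which 2412 were lower in the CKO. In 4 genes, *Bmp2* and the 3 that fell, the CKO and control samples did not overlap, as they did not in 33.8% of all genes tested. The count changed when a single library was left out. Without CKO replicate 3 or 4 or control replicate 1, 2 or 4 only *Bambi* was called. Without CKO replicate 2 *Bambi* and *Bmpr1a* were called, and without control replicate 3 *Bmp4* was called besides the 3. Calls over all genes changed in the same fits, from 1196 with all samples to 1553 without control replicate 3. Without CKO replicate 2, 3 or 4 or control replicate 1, 2 or 4 they numbered 686 to 821.

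**Figure D1:**
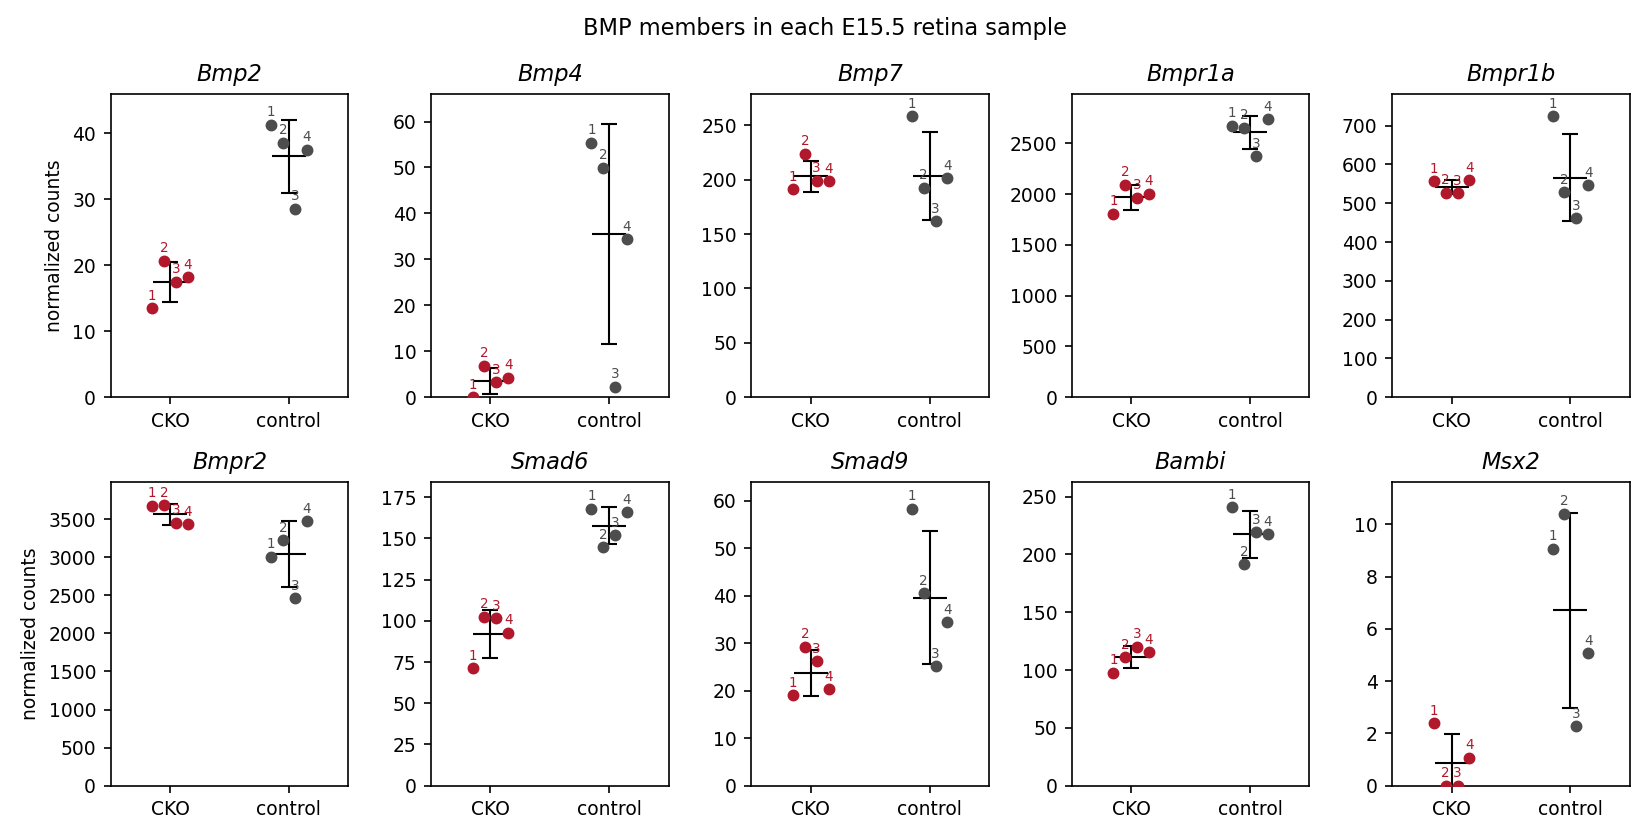
Normalized counts of the 10 BMP genes in each sample, 1 panel per gene, with CKO samples in red and control samples in gray, points numbered by replicate, and the mean and SD in black. The samples of the genotypes do not overlap for *Bmp2*, *Bmpr1a*, *Smad6* and *Bambi*, and control replicate 3 is the lowest control for *Bmp4* and *Msx2*.

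Among the ligands, *Bmp4* and *Bmp2* had lower mean levels in the CKO without passing the cutoff, and *Bmp7* had nearly equal means. *Bmp4*, the dorsal optic cup ligand (ENSMUSG00000021835, chr14:46383520-46390669 of GRCm38, minus strand), had 0, 6.89, 3.28 and 4.27 normalized counts in CKO replicates 1 to 4, against 55.4, 50.0, 2.28 and 34.4 in control replicates 1 to 4. Of the controls, 3 lay far above every CKO sample, while control replicate 3, with 2 reads, lay inside the CKO range. *Bmp4* averaged 3.61 ± 2.85 normalized counts in the CKO and 35.5 ± 23.9 in controls (SD, n = 4 each), with a log2FC of -3.30 (95% interval -5.02 to -1.58, edgeR adjusted p = 0.00745). Over each genotype it had 15 reads in the CKO and 139 in controls, a ratio of 0.0964 (95% exact interval 0.0526 to 0.165, for counting error only). It passed the filter on low counts through 3 control samples and no CKO sample, so a gene this low in the CKO could be tested only where it was higher in controls. Without control replicate 3 it was called (log2FC -3.68, edgeR adjusted p = 2.7e-04), as it was with no filter (edgeR adjusted p = 4.6e-06), whereas limma voom gave adjusted p = 0.0702.

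Because the *Bmp4* difference was the largest of the 9 in log2FC, the 250 bases before its RefSeq start are shown (GRCm38.p6, chr14:46390670-46390919, minus strand, 5′ to 3′). None of the 3 motifs searched on both strands, GGCGCC (a GC-rich motif of SMAD1 and SMAD5), CAGAC (the SMAD box) and TAATTA (a homeodomain core), is in these letters. Of 32851 RefSeq promoter windows of this length, 9.59% held GGCGCC, 42.2% held CAGAC and 4.84% held TAATTA.
*Bmp4*: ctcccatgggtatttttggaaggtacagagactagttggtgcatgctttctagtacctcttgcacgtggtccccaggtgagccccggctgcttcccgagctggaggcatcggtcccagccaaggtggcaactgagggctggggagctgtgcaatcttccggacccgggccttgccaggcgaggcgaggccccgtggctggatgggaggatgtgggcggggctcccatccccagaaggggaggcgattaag

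*Bmp2*, a ligand close to BMP4 in sequence (ENSMUSG00000027358, chr2:133552159-133562885, plus strand), had 13.5, 20.7, 17.5 and 18.1 normalized counts in CKO replicates 1 to 4, against 41.3, 38.5, 28.5 and 37.5 in control replicates 1 to 4. Every CKO sample lay below every control. The means were 17.5 ± 2.97 in the CKO and 36.5 ± 5.52 in controls (SD, n = 4 each). The log2FC of -1.07 (95% interval -1.53 to -0.60) did not pass the cutoff (edgeR adjusted p = 0.00289), nor did it in any of the other fits (adjusted p = 0.00187 to 0.0112 over 16). At these counts, 1 CKO sample and 4 controls reached the 20 normalized counts of the filter, so *Bmp2*, too, was tested on account of the controls. *Bmp7* (ENSMUSG00000008999, chr2:172868012-172940321, minus strand) had 191, 224, 199 and 198 normalized counts in the CKO, against 259, 193, 162 and 202 in controls. The CKO samples lay within the spread of the controls, and the log2FC was -0.0042 (95% interval -0.29 to 0.28, edgeR adjusted p = 0.985), which at this precision does not show equal expression beyond those bounds.

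Scaled by the length of their exons, *Bmp7* was the most abundant of the 3 ligands in every sample. It averaged 50.6 ± 3.55 normalized counts per kb in the CKO and 50.7 ± 10.04 in controls, *Bmp2* 4.91 ± 0.836 in the CKO and 10.3 ± 1.55 in controls, and *Bmp4* 1.61 ± 1.27 in the CKO and 15.8 ± 10.6 in controls (SD, n = 4 each). Of the summed length-scaled level of the 3, *Bmp7* made up 86.3% to 92.6% in CKO samples and 59.2% to 81.7% in control samples. *Bmp4* made up 0% to 4.74% in CKO samples, against 20.2% to 27.5% in control replicates 1, 2 and 4 and 2.05% in control replicate 3. These shares are descriptions and were not tested. In bulk tissue, fewer cells of a type and less RNA per cell cannot be told apart, here and for every gene below.

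**Figure D2:**
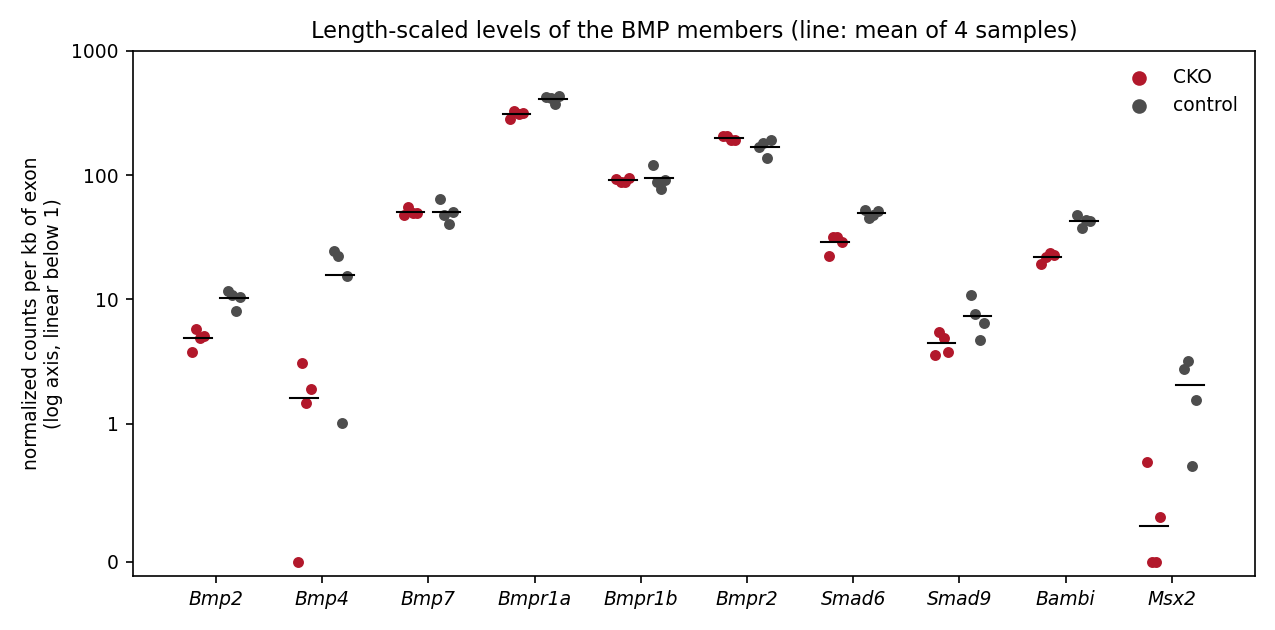
Levels of the 10 BMP genes in normalized counts per kb of exon on a logarithmic axis (linear below 1), with CKO samples in red, control samples in gray and a line at each mean. *Bmpr1a* lies highest in both genotypes, at 309.9 in the CKO and 411 in controls, and *Msx2* lowest, at 0.263 in the CKO and 2.04 in controls.

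The receptors differed among themselves: *Bmpr1a* fell, *Bmpr1b* had similar means, and *Bmpr2* had a higher mean in the CKO without passing. *Bmpr1a*, which encodes the type I receptor ALK3 (ENSMUSG00000021796, chr14:34410734-34503341, minus strand), had 1807, 2094, 1967 and 2005 normalized counts in CKO replicates 1 to 4, against 2674, 2655, 2372 and 2742 in control replicates 1 to 4. All CKO samples lay below all controls, and control replicate 3 was the lowest control. It fell to 1968 ± 120.0 in the CKO, against 2611 ± 163 in controls (SD, n = 4 each), with a log2FC of -0.41 (SE 0.0592, edgeR adjusted p = 3.7e-04), a fold of 0.754. The size held from -0.45 to -0.37 when any 1 library was left out, but the call was lost without CKO replicate 3 or 4 or control replicate 1, 2 or 4 (adjusted p = 0.00145 to 0.00186). Its exons share 290 bases with *Gm17110* on the other strand, which had at most 1 read in any sample.

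*Bmpr1b*, which encodes the type I receptor ALK6 (ENSMUSG00000052430, chr3:141837136-142169425, minus strand) and is known for ventral expression in the embryonic mouse retina, had 556, 527, 525 and 560.2 normalized counts in the CKO, against 725, 529, 461 and 547 in controls. The CKO samples lay inside the range of the controls, of which control replicate 1 was highest. The log2FC was -0.06 (95% interval -0.31 to 0.19, edgeR adjusted p = 0.726). *Bmpr2*, which encodes the type II receptor (ENSMUSG00000067336, chr1:59763400-59879014, plus strand), had 3680, 3686, 3456 and 3433 normalized counts in the CKO, against 3010, 3227, 2467 and 3471 in controls. Control replicate 4 lay inside the CKO range. The log2FC was 0.23 (95% interval 0.03 to 0.42, edgeR adjusted p = 0.0687).

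Per kb of exon, the order of the receptors was the same in both genotypes. *Bmpr1a* averaged 309.9 ± 18.9 normalized counts per kb in the CKO and 411 ± 25.7 in controls, *Bmpr2* 198 ± 7.67 in the CKO and 169 ± 23.8 in controls, and *Bmpr1b* 90.9 ± 3.12 in the CKO and 94.9 ± 18.9 in controls (SD, n = 4 each). No 2 of the 3 overlapped in either genotype. *Bmpr1b* was 24.7%, 21.2%, 22.1% and 22.9% of the length-scaled sum of *Bmpr1a* and *Bmpr1b* in CKO replicates 1 to 4, against 22.4%, 17.5%, 17.2% and 17.5% in control replicates 1 to 4, so the share in control replicate 1 lay inside the CKO range. *Bmpr1a* was 58.2% to 62.3% of the sum of *Bmpr1a* and *Bmpr2* in CKO samples and 69.1% to 73.1% in controls. The exon length of *Bmpr2*, 17983 bases, is the sum of all annotated exons, and a shorter transcript in the retina would raise its length-scaled level.

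The windows before the starts of the type I receptor genes are shown because *Bmpr1a* was among the genes that fell and *Bmpr1b* is the alternative type I receptor; a difference in response between them was not tested. The *Bmpr1a* window had 78.8% G and C and 36 CpG dinucleotides in 250 bases, against 46.8% and 1 in the window of *Bmpr1b* nearest the upstream end of the gene (the median over all windows was 52.4% G and C). Other windows of *Bmpr1b* had 52.8% and 56.4% G and C. Capitals mark GGCGCC in *Bmpr1a*, 198 bases before its start, and CAGAC in *Bmpr1b*, 128 bases before its start. *Bmpr1a* is given for the 109 bases outside annotated exons (GRCm38.p6, chr14:34502688-34502796, minus strand), and *Bmpr1b* for 250 bases (chr3:141982265-141982514, minus strand). Both stretches lie inside the annotated span of their gene, that of *Bmpr1b* in an intron of longer transcripts.
*Bmpr1a*: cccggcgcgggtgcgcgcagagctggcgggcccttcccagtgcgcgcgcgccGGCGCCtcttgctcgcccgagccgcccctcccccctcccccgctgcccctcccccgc
*Bmpr1b*: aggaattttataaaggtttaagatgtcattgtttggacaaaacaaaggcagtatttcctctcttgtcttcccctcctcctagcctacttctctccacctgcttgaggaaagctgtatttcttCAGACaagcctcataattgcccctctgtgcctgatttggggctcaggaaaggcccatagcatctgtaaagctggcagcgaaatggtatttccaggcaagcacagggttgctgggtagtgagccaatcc

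**Figure D3:**
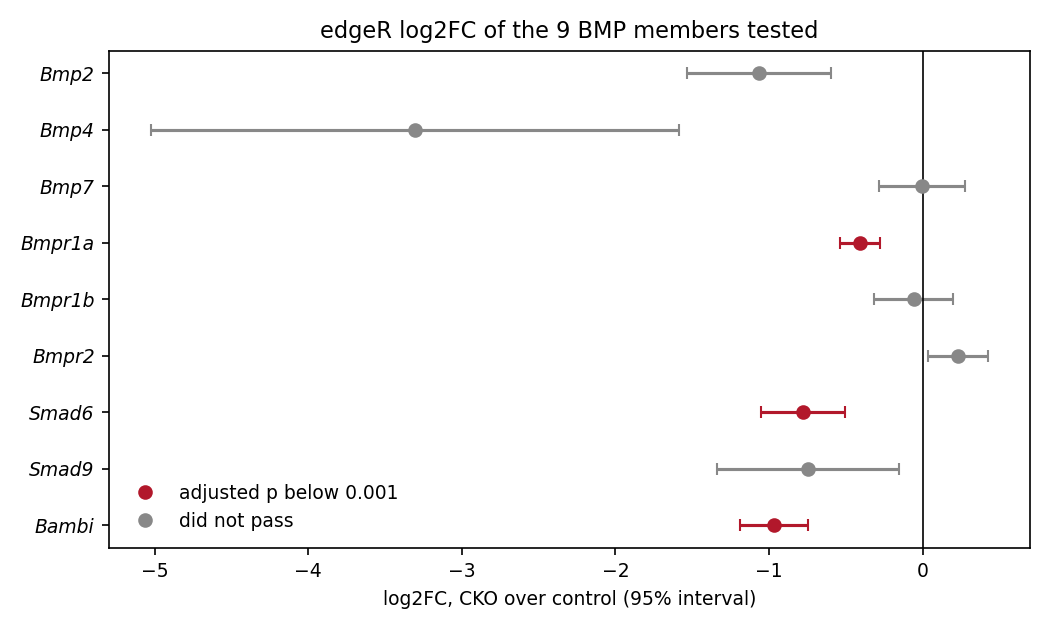
The log2FC (CKO over control) of the 9 BMP genes tested, with 95% intervals from edgeR, red below an adjusted p of 0.001 and gray above it. *Bambi* (-0.97), *Smad6* (-0.78) and *Bmpr1a* (-0.41) passed, and the interval of *Bmp4* is the widest, from -5.02 to -1.58.

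Both inhibitors of BMP signaling fell in the CKO. *Bambi* (ENSMUSG00000024232, chromosome 18, 3507923 to 3516404, plus strand), the pseudoreceptor, had 97.7, 111, 120 and 115 normalized counts in CKO replicates 1 to 4, against 241, 192, 219 and 218 in control replicates 1 to 4. The groups were far apart, with the highest CKO sample well below the lowest control. It fell to 111 ± 9.69 in the CKO, against 217 ± 20.1 in controls (SD, n = 4 each), with a log2FC of -0.97 (SE 0.102, edgeR adjusted p = 4.0e-05), a fold of 0.511 (95% interval 0.438 to 0.596). *Bambi* ranked 308 among the 13891 genes by p and was called in all 16 other fits made at the cutoff of 0.001, with adjusted p = 1.5e-11 to 4.4e-04. *Smad6*, which encodes the inhibitory SMAD (ENSMUSG00000036867, chr9:63953076-64022059, minus strand), had 71.5, 103, 102 and 92.8 normalized counts in the CKO, against 168, 145, 152 and 166 in controls. CKO replicate 1 was the lowest of the 8, and the genotypes did not overlap. It fell to 92.2 ± 14.5 in the CKO, against 158 ± 11.3 in controls (SD, n = 4 each), with a log2FC of -0.78 (SE 0.124, edgeR adjusted p = 6.8e-04). Its call was lost without CKO replicate 2, 3 or 4 or control replicate 1, 2 or 4 (adjusted p = 0.00152 to 0.00327) and with sex as a covariate (adjusted p = 0.00126), while its log2FC stayed between -0.83 and -0.67.

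*Smad9*, which encodes a SMAD activated by BMP receptors (ENSMUSG00000027796, chr3:54755582-54801257, plus strand), had 19.1, 29.3, 26.2 and 20.3 normalized counts in the CKO, against 58.4, 40.6, 25.1 and 34.4 in controls. Control replicate 3 again lay inside the CKO range, and control replicate 1 was highest. The means were 23.7 ± 4.86 in the CKO and 39.6 ± 14.03 in controls (SD, n = 4 each), and the log2FC was -0.75 (95% interval -1.34 to -0.15, edgeR adjusted p = 0.0533). Among the SMADs activated by these receptors it was the least abundant per kb, at 4.42 ± 0.906 in the CKO and 7.39 ± 2.61 in controls, below both *Smad1* and *Smad5*. *Smad1* averaged 175 ± 10.4 per kb in the CKO and 153 ± 3.91 in controls, and *Smad5* averaged 304 ± 7.55 in the CKO and 329 ± 27.1 in controls. *Msx2*, a homeobox target of BMP (ENSMUSG00000021469, chr13:53466884-53473074, minus strand), did not pass the filter. It had 3, 0, 0 and 1 reads in CKO replicates 1 to 4, against 9, 10, 2 and 5 in control replicates 1 to 4. The ratio of normalized reads was 0.137 (95% exact interval 0.0349 to 0.396, for counting error only). In the fit with no filter it had adjusted p = 0.00643 by edgeR, and CKO replicate 1 lay above control replicate 3.

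The windows of the SMAD genes are shown since *Smad6* was among the genes that fell and *Smad9* holds the only other GGCGCC that lies outside annotated exons. No searched motif is in the *Smad6* window (chr9:64022060-64022309, minus strand), and capitals mark GGCGCC in that of *Smad9* (chr3:54755332-54755581, plus strand), 51 bases before the start. RefSeq windows matched 7 of the 10 genes, and GGCGCC was in those of *Bmpr1a*, *Bmpr2* and *Smad9*, all above the median in G and C (78.8%, 64.0% and 73.2%).
*Smad6*: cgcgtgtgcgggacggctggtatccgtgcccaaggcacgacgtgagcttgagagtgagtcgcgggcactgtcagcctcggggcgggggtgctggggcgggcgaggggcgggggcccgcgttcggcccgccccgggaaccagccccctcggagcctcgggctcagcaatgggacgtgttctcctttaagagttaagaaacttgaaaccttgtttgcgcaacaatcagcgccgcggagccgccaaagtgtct
*Smad9*: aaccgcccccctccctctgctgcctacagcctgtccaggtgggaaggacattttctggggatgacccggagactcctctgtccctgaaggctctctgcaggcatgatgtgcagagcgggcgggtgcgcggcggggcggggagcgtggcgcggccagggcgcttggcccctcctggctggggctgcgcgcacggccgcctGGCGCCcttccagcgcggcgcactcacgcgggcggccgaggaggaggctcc

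Within the 8 samples, the gene whose log2(normalized count + 1) followed *Bambi* most closely was *Ska3* (Pearson r = 0.9995), then *Tle3* (0.997). For *Smad6* these were *Hnrnpf* (0.996) and *Rfwd3* (0.995), and for *Bmpr1a* they were *Bmp2* (0.994) and *Tanc1* (0.994). The points share the genotype difference and 13890 genes were searched for each, so the values describe likeness in these libraries only.

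Control replicate 3 was the lowest control for 8 of the 10 BMP genes and for 33.2% of all genes tested. It was also the lowest for 9 of 10 genes of a ciliary margin list, 7 of 8 blood genes and 7 of 9 other BMP receptors and co-receptors. Other lists had lower counts: 10 of 20 extracellular modulators, 6 of 12 other SMADs and regulators, and 4 of 14 other ligands. For other BMP targets the count was 2 of 10, and for the retinal genes 1 of 7. The summed blood level was 377.9 normalized counts in control replicate 3 and at least 1390.3 in the other controls. *Msx1*, a BMP target and a marker of the ciliary margin, had 0.790, 0.860, 4.38 and 3.20 normalized counts in CKO replicates 1 to 4, against 154, 122, 12.6 and 59.7 in control replicates 1 to 4. The controls were thus ordered much as for *Bmp4* and *Msx2*, with control replicate 3 lowest. *Otx1* had 33.4, 72.4, 64.5 and 70.4 in the CKO, against 297, 199, 46.8 and 141 in controls, and *Wfdc1* had 26.2, 29.3, 42.7 and 33.1 in the CKO, against 217, 199, 36.5 and 212 in controls. Both of these markers in control replicate 3 lay within the CKO range, as did *Bmp4* there. The list did not move in 1 direction: of its 10 genes 1, *Msx1*, fell, none rose, 5 had a lower and 5 a higher log2FC. Besides *Msx1*, the log2FC was -2.36 for *Wfdc1*, -1.74 for *Aqp1*, -1.53 for *Otx1* and -0.01 for *Mitf*. It was 0.83 for *Ccnd2*, 0.32 for *Zic1*, 0.20 for *Zic2*, 0.14 for *Fzd1* and 0.12 for *Wnt2b*. *Aqp1* and *Msx1* reached the filter on low counts in controls only, so each could be tested only as lower in the CKO. The summed level of the list, most of it *Ccnd2*, *Zic1* and *Zic2*, was 4700.5 to 5720.8 normalized counts in CKO samples and 3068.8 to 5580.1 in controls. The part of peripheral retina or blood in the *Bmp4*, *Msx2* and *Smad9* differences was not tested. Without control replicate 3, the log2FC was -0.97 for *Bambi*, -0.80 for *Smad6* and -0.45 for *Bmpr1a*. The controls kept in those fits were the ones with the higher blood sums, so that part was not tested for these genes either.

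**Figure D4:**
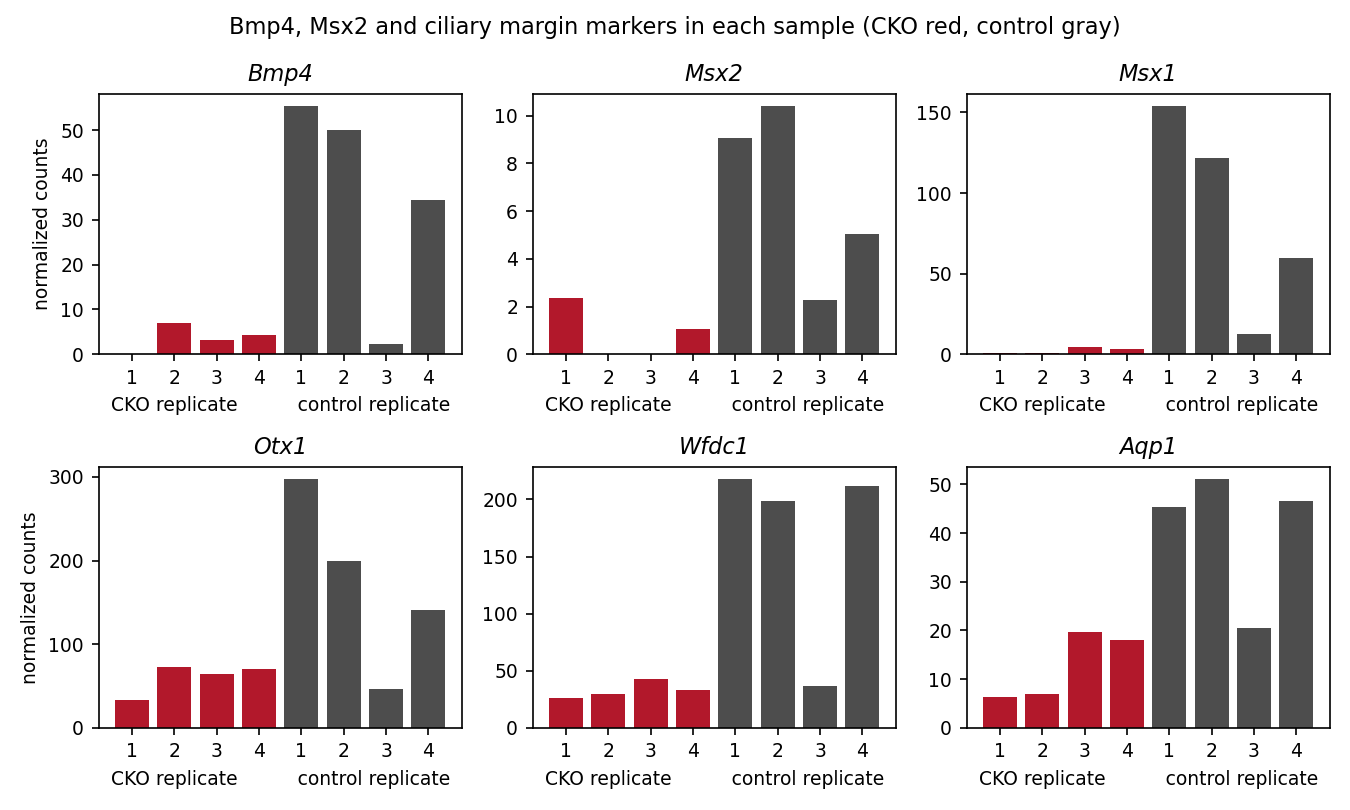
Normalized counts of *Bmp4*, *Msx2* and 4 genes of the ciliary margin list (*Msx1*, *Otx1*, *Wfdc1* and *Aqp1*, chosen after their values were seen as those with the most negative log2FC) in each sample, with CKO bars in red and control bars in gray. Control replicate 3 is the lowest control in each panel, at 2.28 for *Bmp4* and 12.6 for *Msx1*. Of the 10 genes of the list, 5 had a positive log2FC, and none of these is shown.

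Markers of tissue next to the retina ranged widely. *Rpe65* of the pigment epithelium had at most 1.04 normalized counts in any sample, *Lum* of the periocular mesenchyme at most 2.13 and *Cryba2* of the lens at most 1.01, while *Trpm1* of the pigment epithelium reached 525, *Pdgfra* of the mesenchyme list 467 and *Cryba1* of the lens 58.0. Of 10 pigment epithelium genes 6 were tested, of which *Pmel* fell and *Rlbp1*, which glia also express, rose, and the sum of the list was 593.4 to 1115.1 in CKO samples and 511.5 to 1033.1 in controls. Without *Rlbp1*, its most abundant gene, the sum was 200.2 to 607.2 in CKO samples and 295.7 to 915.2 in controls. The pigment genes *Tyr*, *Tyrp1*, *Dct* and *Pmel* had log2FC values of -0.92, -1.52, -2.05 and -1.75 with no overlap of the genotypes, the first 3 of them reaching the filter in controls only. Of 9 endothelial genes, which matter here since vessels express *Smad6*, 8 were tested and *Kdr* and *Cldn5* fell. Their sum was 2720.8 to 3645.3 normalized counts in the CKO and 4439.4 to 4760.3 in controls, most of it *Kdr*, and without *Kdr* it was 242.3 to 582.6 in the CKO and 396.8 to 598.1 in controls. The log2FC was -0.48 for *Kdr* and -1.55 for *Cldn5* (edgeR adjusted p = 2.6e-04 and 1.9e-04), and the other 6 tested lay between -0.03 for *Esam* and 0.34 for *Emcn*. *Tek*, below the filter, had a log2FC of -1.08 in the fit with no filter (edgeR adjusted p = 0.0759). No mesenchymal gene but *Col1a2* and no lens, blood or macrophage gene was called (edgeR), with 3, 2, 6 and 9 genes of these lists tested. *Col1a2* fell (log2FC -1.98, edgeR adjusted p = 4.5e-04). *Cryba1* of the lens and *Pdgfra* were higher in the CKO with no overlap (log2FC 2.83 and 1.27, edgeR adjusted p = 0.00132 and 0.0155). *Cryba1* reached the filter in CKO samples only. The other genes tested in these 2 lists, *Bfsp1* of the lens and *Col1a1*, had log2FC values of -0.03 and -0.01. The sums were 286.6 to 608.2 in CKO and 216.9 to 298.9 in control samples for mesenchyme, but without *Pdgfra*, its most abundant gene, 47.7 to 140.8 in CKO and 106.3 to 187.3 in control samples. They were 64.6 to 138.7 in CKO and 45.6 to 78.5 in control samples for lens. For blood they were 601.3 to 1924.3 in CKO and 377.9 to 2415.5 in control samples, and for macrophages 699.9 to 957.2 in CKO and 876.9 to 1040.1 in control samples. The part of these cells in the differences of the BMP genes was not tested.

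Of 10 other genes known as BMP targets, 7 fell in the CKO, none rose and 3 did not pass, with a median log2FC of -1.10, beside 4.97% of all genes tested that fell. The list, like those below, was chosen with earlier results of these data known. Those genes also answer to other pathways, *Hey1* to Notch for example. *Id1*, which encodes an inhibitor of bHLH factors, fell to 394 ± 38.8 normalized counts in the CKO, against 1073 ± 63.3 in controls (SD, n = 4 each; log2FC -1.44, SE 0.0746, edgeR adjusted p = 3.1e-07). *Id2* fell to 582 ± 38.2 in the CKO, against 1348 ± 73.0 in controls (log2FC -1.21, SE 0.0644, edgeR adjusted p = 3.5e-07), and *Atoh8*, a bHLH factor gene, fell to 117 ± 12.8, against 424 ± 43.8 (log2FC -1.87, SE 0.104, edgeR adjusted p = 4.6e-07). *Hey1* fell with a log2FC of -1.06, *Tbx3*, a T-box gene of the dorsal retina, with -1.15, *Id3* with -0.66 and *Msx1* with -5.29 (edgeR adjusted p = 7.4e-06, 1.0e-05, 1.7e-05 and 5.5e-04). The other dorsal T-box genes did not pass: *Tbx2* averaged 2000 ± 50.6 in the CKO and 2375 ± 207 in controls (edgeR adjusted p = 0.00762), and *Tbx5* averaged 275 ± 16.5 in the CKO and 202 ± 64.1 in controls (edgeR adjusted p = 0.0729). Without any 1 CKO library the call of *Msx1* was lost (adjusted p = 0.00182 to 0.00297), as it was by limma voom (0.0121), and the other 6 kept theirs in every fit. *Msx1* reached the filter in 3 controls and no CKO sample, so it could be tested only as lower in the CKO, and without it the median of the other 9 was -1.06.

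The other 4 lists held 7 called genes, in both directions. Of 15 other BMP and GDF ligands 4 were abundant enough to test, and *Gdf10* alone passed: it rose to 62.5 ± 8.74 normalized counts in the CKO, against 18.2 ± 4.10 in controls (SD, n = 4 each; log2FC 1.79, SE 0.202, edgeR adjusted p = 6.8e-05). It reached the filter in 4 CKO samples and 1 control, and so was tested on account of the CKO. *Gdf6*, a dorsal retinal ligand, averaged 131 ± 13.02 in the CKO and 181 ± 26.3 in controls (log2FC -0.46, edgeR adjusted p = 0.0138), and *Gdf11*, the most abundant of the 4, had a log2FC of 0.23 (edgeR adjusted p = 0.0329). Of 9 other receptors and co-receptors, 2 rose and 7 did not pass. These were the repulsive guidance molecules, which act as BMP co-receptors: *Rgmb* rose to 1066 ± 72.9, against 633 ± 56.2 (log2FC 0.75, SE 0.0771, edgeR adjusted p = 3.4e-05), and *Rgma* to 561 ± 19.3, against 319 ± 40.9 (log2FC 0.81, SE 0.0878, edgeR adjusted p = 4.9e-05). The type I receptor gene *Acvr1* had a log2FC of 0.03 and the type II receptor gene *Acvr2a* one of 0.37 (edgeR adjusted p = 0.759 and 0.00114), the second called without control replicate 4, with no filter and by DESeq2. Exons of *Rgma* share 258 bases with a gene on the other strand.

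Of 20 extracellular antagonists and modulators 13 were tested, of which 3 fell and 10 did not pass. *Chrdl1*, a chordin-like antagonist, fell to 111 ± 16.9 normalized counts in the CKO, against 215 ± 31.7 in controls (SD, n = 4 each; log2FC -0.95, SE 0.134, edgeR adjusted p = 3.0e-04), *Tll1*, a tolloid protease that cleaves chordin, had a log2FC of -0.81 and *Nbl1* one of -1.35 (edgeR adjusted p = 3.8e-04 and 5.8e-04). *Nog*, which encodes the antagonist noggin, was below the filter, with 17.5, 17.2, 16.4 and 13.9 normalized counts in the CKO and 3.02, 6.25, 1.14 and 6.08 in controls. The genotypes did not overlap, and in the fit with no filter *Nog* was called, with a log2FC of 1.93 (edgeR adjusted p = 6.3e-04). In the only other fit that held *Nog*, with another filter, it did not pass (edgeR adjusted p = 0.00262). Of 12 other SMADs and intracellular regulators *Smurf1*, which encodes a ubiquitin ligase for SMAD1 and SMAD5, rose (log2FC 0.35, SE 0.0494, edgeR adjusted p = 2.8e-04) and 11 did not pass, among them *Smad4* (log2FC 0.01, edgeR adjusted p = 0.873), *Smad7* (log2FC 0.06, adjusted p = 0.627) and *Smad1* (log2FC 0.19, adjusted p = 0.0145). Each of *Chrdl1*, *Tll1*, *Nbl1* and *Smurf1* lost its call without control replicate 1, 2 or 4 or CKO replicate 4. *Chrdl1* and *Tll1* also lost it without CKO replicate 3, *Smurf1* without CKO replicate 2 and *Nbl1* without any 1 CKO library. In these fits the adjusted p ran up to 0.00159 for *Chrdl1*, 0.00174 for *Tll1*, 0.00252 for *Nbl1* and 0.00184 for *Smurf1*.

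**Figure D5:**
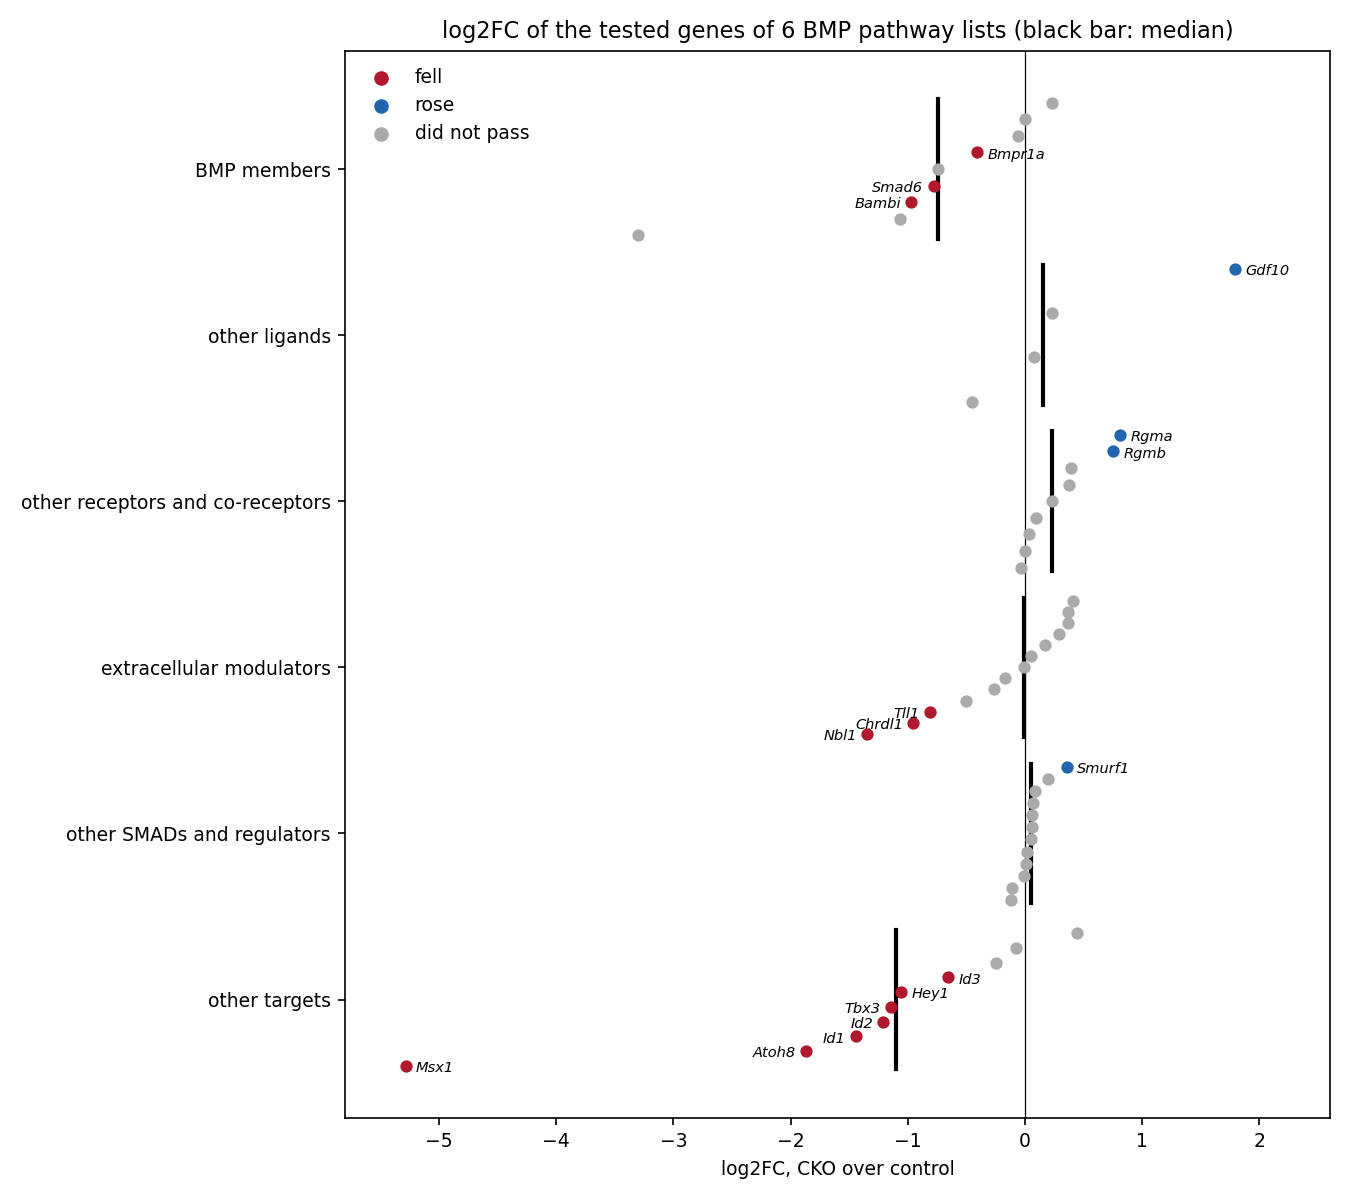
The log2FC (CKO over control) of each tested gene of 6 BMP pathway lists, a dot for every gene, colored red where it fell, blue where it rose and gray where the test was not passed. Black bars mark list medians. The median was -0.75 for the 9 BMP genes tested and -1.10 for the 10 other targets, against 0.15, 0.23, -0.0060 and 0.05 for the other ligands, receptors, extracellular modulators and SMADs.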

How the data were processed

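RNA was measured in 8 samples, 4 CKO and 4 control, grouped by the genotype in the sample labels. Per the labels and methods, poly(A)-selected RNA was sequenced for 50 cycles from a single end after a library preparation without strand marking; the authors aligned the reads and obtained counts over genes of mm10 (TopHat2, HTSeq and Cufflinks are the tools in the submitters' notes). The deposited values are these raw counts, not normalized or pooled. Tool versions were not given in the sources used here, nor was the annotation release. Litter and day of harvest are not tied to samples and could not enter a test.

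Analyses used R 4.3.3. A gene was tested if 3 or more samples reached 20 normalized counts (median-of-ratios size factors), by the quasi-likelihood test of edgeR 4.0.16 with TMM factors and a genotype term alone, and called at an adjusted p below 0.001. SEs were the absolute log2FC divided by the root of F. Alternatives were DESeq2 1.42.0, limma 3.58.1 voom, other scalings, filters and cutoff, the replicate number as a block, sex as a covariate, and leaving out each sample. The fit was checked on simulated counts. Positions, exon lengths and overlaps came from GENCODE M21 (GRCm38), where 28232 of 28432 gene IDs were found, and promoters from RefSeq. Named genes were all 10 members and, from each other list, up to 4 called genes with the smallest p and 1 or 2 abundant genes not called; *Acvr2a*, *Gdf6*, *Nog*, *Tbx5*, the remaining called targets and the named markers were chosen after their values were seen. The members and lists were chosen with earlier results of these data known. Some genes of the lists are not reported here.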

Additional observations from a re-analysis of the deposited data

How the results depend on the processing

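Over all genes, the count of differentially expressed genes was 1196 with edgeR, and 2390 with DESeq2, 2055 with no filter on low counts, 4619 at an adjusted p below 0.05 and 676 with the replicate number as a block. It was 686 to 1553 when any 1 sample was left out. Of the BMP genes 3 were called, and 5 at an adjusted p below 0.05, 1 with the replicate block and 1 to 4 without any 1 sample. Of the other BMP pathway genes 14 were called, and 22 at an adjusted p below 0.05 and 9 to 16 without any 1 sample. The log2FC of *Bmp7*, -0.0042, was 0.0032 by DESeq2, 0.0099 by limma voom, 0.0031 with median-of-ratios size factors, 0.0088 with the replicate block, 0.0472 with sex as a covariate and -0.0963 to 0.1322 without any 1 sample. That of *Bmpr1b*, -0.06, was 0.0061 with sex as a covariate and -0.1439 to 0.0828 without any 1 sample. No other BMP gene changed direction in any fit. The cause of these changes was not tested.

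The replicate numbers were not taken as pairs: deviations of same-numbered samples correlated by 0.142, -0.154, 0.063 and -0.116 for numbers 1 to 4. With the replicate block, *Bmpr1a* and *Smad6* lost their calls (edgeR adjusted p = 0.00155 and 0.00356), as did *Chrdl1*, *Nbl1* and *Smurf1* (0.00132, 0.00152 and 0.00187). Read counts were low for *Bmp4*, *Msx2*, *Bmp2* and *Smad9*, with at most 58 reads in any sample.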
